A study of Mus musculus with 6 samples.

Results

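T cells and natural killer (NK) cells are lymphocytes, and NK cells and cytotoxic T cells recognise and kill infected or abnormal cells. Their lineage genes were described here in KLS cells, the Kit-positive, Sca-1-positive, lineage-negative cells of the marrow, among which are stem cells and multipotent progenitors. The list held 10 genes, chosen by name but with earlier results of these data known. They were the NK receptors Klrd1, Ncr1 and Klrb1c and the granule genes Nkg7, Gzma and Gzmb. The T cell receptor genes Cd3d, Cd3g, Lck and Zap70 completed the list. A gene's probe sets were those that the platform annotation gave to it alone, and 9 of the 10 genes had such probe sets, among 20059 genes measured in all. Lck was not analysed here. There were 3 arrays of wild-type KLS cells and 3 arrays of KLS cells from Dnmt3a+/- mice, in which 1 copy of the DNA methyltransferase gene Dnmt3a is disrupted. The sources used here do not give age, sex, how the allele was made or whether animals were pooled. Each array has its own number in the labels, but nothing there says that this is an animal, so a p-value covers only sample-to-sample spread, part of which may be technical.

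As background, T cells sense antigen through a receptor whose CD3 chains, among them those of Cd3d and Cd3g, carry the signal into the cell, where the kinases Lck and Zap70 pass it on. NK cells have no such receptor and instead weigh activating receptors such as that of Ncr1 against inhibitory ones such as the pair that Klrd1 forms with Klrc1. NK cells and cytotoxic T cells kill with granzymes, which they store in granules. In marrow, T and NK cells are among the mature cells that a lineage-negative sort removes, while multipotent progenitors can carry low levels of some lymphoid transcripts.

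Dnmt3a methylates cytosine in CpG dinucleotides, so the promoters of the list are given by their CpG content. The RefSeq promoter table (GRCm38.p6) held a window of 300 bases, from 250 before to 50 after the start, for 9 of the 10 genes. For Klrd1 it held none, and where a gene had several starts the most upstream one was taken. CpG counts per window were 0 for Ncr1, 1 for Klrb1c, 3 for Nkg7, 5 for Gzma, 2 for Gzmb, 1 for Cd3d, 4 for Cd3g, 7 for Lck and 8 for Zap70. Over 32817 windows the median was 7, and 76.7% of windows held at least the 3 CpGs of Nkg7. The listed genes thus had at most about the usual CpG content, with Zap70 alone above the median. Methylation itself was not measured. The 250 bases before the start are printed for Nkg7, the gene of the list with a clear signal in these cells, and for Ncr1, the gene with no CpG in its window. Both lie on the plus strand, at chr7:43436888-43437137 for Nkg7 and chr7:4337465-4337714 for Ncr1, and capitals mark CpG.
Nkg7: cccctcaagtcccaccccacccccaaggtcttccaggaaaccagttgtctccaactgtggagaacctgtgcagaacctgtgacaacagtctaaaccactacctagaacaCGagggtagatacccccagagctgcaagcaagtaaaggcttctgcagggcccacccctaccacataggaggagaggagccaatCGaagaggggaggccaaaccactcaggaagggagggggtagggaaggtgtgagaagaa
Ncr1: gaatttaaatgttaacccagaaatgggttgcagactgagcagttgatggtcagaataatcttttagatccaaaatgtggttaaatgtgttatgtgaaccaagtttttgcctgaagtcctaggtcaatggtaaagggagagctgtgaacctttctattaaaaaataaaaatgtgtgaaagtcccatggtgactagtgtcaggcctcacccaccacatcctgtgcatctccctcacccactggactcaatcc
The printed stretch of Nkg7 held 2 CpGs and that of Ncr1 held 0.

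Markers of KLS cells were read first. These alone cannot show whether mature cells remained after the sort. The gate genes Kit and Ly6a, which encodes Sca-1, and the progenitor genes Cd34 and Flt3 read 10.7, 8.47, 10.5 and 10.3 as mean log2 intensity over all their probe sets. Olfactory receptor genes, which blood cells do not use as a class and which stand in for unexpressed genes, had a median of 4.31 and a 95th percentile of 6.39 over 1061 genes. Of 14 neutrophil markers with probe sets, 11 also lay above that percentile. S100a8 and S100a9, named after their values were seen, had means of 11.4 and 11.1 in wild-type cells. In Dnmt3a+/- cells these means were 11.8 and 11.6, and which cells carried the transcripts was not tested. Dnmt3a had means of 8.57 ± 0.11 (wild-type) and 8.26 ± 0.10 (Dnmt3a+/-; SD, n = 3) and was lower on every Dnmt3a+/- array, with a log2 difference of -0.31 (SE 0.12). That difference did not pass over all genes (limma, adjusted p = 0.631). Dnmt3a+/- replicate 2 stood apart from the rest, with a mean correlation across genes of 0.904 with the other arrays, against 0.938 to 0.949 for the remaining arrays. For the T and NK genes named below with a tested alternative, values without it are given where it moved the difference by over 1.5 times. In such bulk samples, fewer cells of a type and less RNA per cell cannot be told apart.

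Most of the list lay within the range of the olfactory receptor genes. Nkg7, which encodes a membrane protein of cytotoxic granules, was the 1 gene of the 9 above their 95th percentile, at 10.4 over all its probe sets. The mean levels of the other genes were 6.15 for Zap70, 5.46 for Gzma, 5.43 for Klrd1, 5.30 for Cd3d, 5.13 for Gzmb, 4.68 for Klrb1c, 4.65 for Ncr1 and 4.50 for Cd3g. Cd3e, the CD3 chain that lineage antibodies commonly bind, read 6.37 and so lay just under that percentile too. Probe sets differ in how strongly they respond, so these values set each gene against the range of unexpressed genes and give no order among the genes. Of the genes other than olfactory receptors, 53.3% lay above the same percentile. This holds for means over all probe sets only. The brightest single probe set read 9.24 for Zap70, 9.08 for Gzma, 8.18 for Gzmb and 7.97 for Klrb1c, while the brightest of Klrd1, Ncr1, Cd3d and Cd3g read 7.18, 6.91, 6.48 and 6.45.

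**Figure D1:**
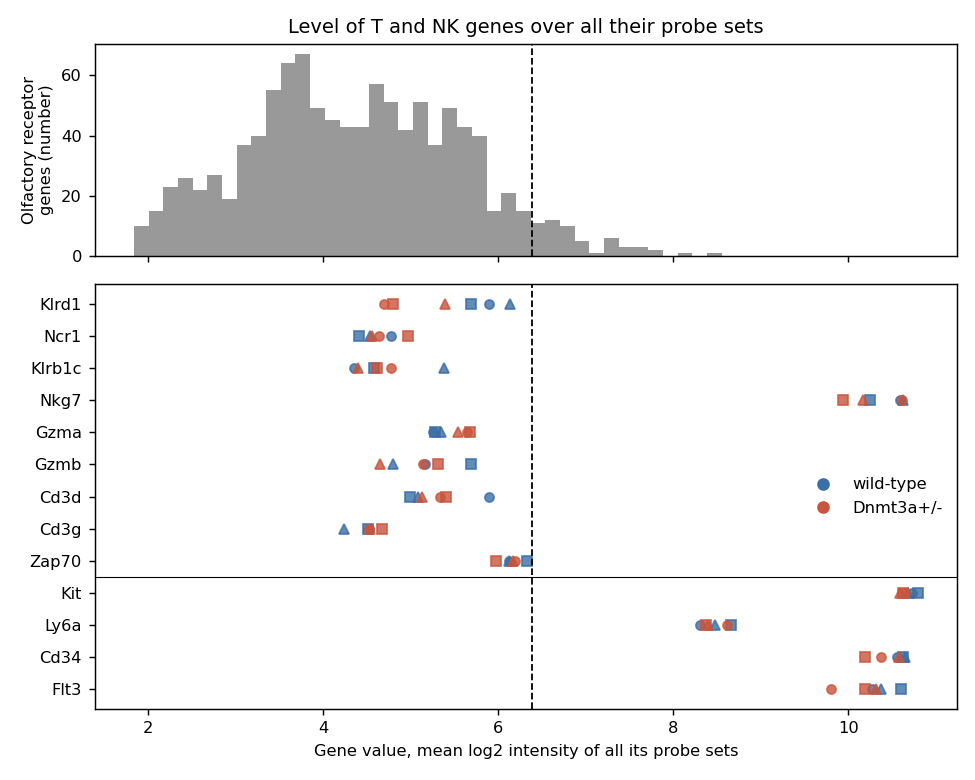
The top panel is a histogram of the mean log2 intensity of 1061 olfactory receptor genes, and the bottom panel gives the value of each array (blue wild-type, red Dnmt3a+/-, circle, square and triangle for replicates 1, 2 and 3) for the 9 measured T and NK genes and 4 KLS genes. The dashed line is the 95th percentile of the olfactory receptor genes (6.39). Nkg7 and the 4 KLS genes lie to its right on every array, and the mean levels of the other 8 T and NK genes lie to its left.

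The comparison of genotypes asks whether these lineage transcripts differ in stem and progenitor cells with 1 intact copy of Dnmt3a. For it, the log2 intensities of a gene were averaged over those probe sets above the median level of all probe sets (log2 5.89, over all 6 arrays). Of the 85 probe sets of the 9 genes, 36 passed this filter, with 8 of 8 for Nkg7, 9 of 18 for Zap70, 4 of 9 for Gzma, 3 each for Klrd1, Klrb1c and Cd3d, and 2 each for Ncr1, Gzmb and Cd3g. The nearest probe set inside the filter was one of Gzmb at 5.895, and the nearest outside was one of Cd3d at 5.886. No gene of the list differed between genotypes after adjustment (limma, 0 of 9 at adjusted p 0.05), and none of the 20059 genes did (0%). An unadjusted p under 0.05 was found for 2 of the 9 genes, Klrd1 lower and Ncr1 higher in Dnmt3a+/- cells, where 7.49% of all genes had such a p. The genotypes did not overlap for 1 of the 9, Klrd1, where 15.8% of all genes did not overlap (6.74% with Dnmt3a+/- higher and 9.05% with it lower). The median log2 difference, Dnmt3a+/- minus wild-type, was 0.03 over the 9 genes and -0.02 over all genes. The 1 gene without overlap (11.1%) is near its background share. The 2 genes with such a p are 22.2% of the 9, above 7.49%, on a small count that was not tested.

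Klrd1, which encodes the CD94 chain shared by inhibitory and activating NK receptor pairs, had the largest difference of the list. Its log2 values were 7.05, 7.12 and 7.04 on the wild-type arrays and 6.21, 6.74 and 6.12 on the Dnmt3a+/- arrays. All Dnmt3a+/- arrays were below all wild-type arrays, and the wild-type arrays lay close together. The means were 7.07 ± 0.04 and 6.36 ± 0.33 (SD, n = 3), a log2 difference of -0.71 (SE 0.17, 95% confidence interval -1.10 to -0.32) or a fold of 0.610. It did not pass over all genes (limma, adjusted p = 0.631), and the exact two-sided permutation p was 0.1, below which a design of 3 against 3 cannot go. Dnmt3a+/- replicate 2 was the closest to wild-type, and without it the difference was -0.90 (limma, adjusted p = 0.624). Over the alternatives where it could be measured the difference ran from -0.95 to -0.59, with adjusted p from 0.210 to 0.903.

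The single probe sets of Klrd1 ran the same way. The differences of the 3 used probe sets were -0.85, -0.65 and -0.64, and the genotypes did not overlap in 2 of them. In the one at -0.85, Dnmt3a+/- replicate 2 read 7.25, above the wild-type arrays at 6.63, 6.78 and 6.83. The 4 probe sets below the filter were also lower in Dnmt3a+/- cells, with differences of -1.48, -1.40, -0.89 and -0.74. Their mean levels were 3.25 to 5.50, and only the one at -1.40 was free of overlap. All 7 read the same 6 RNA samples and so are not independent of each other. With all 7 probe sets the gene value was 5.91 ± 0.22 against 4.96 ± 0.38 in Dnmt3a+/- cells (SD, n = 3). The difference was then -0.95 (SE 0.21) with no overlap between genotypes, and it did not pass (limma, adjusted p = 0.668). Klrd1 and Nkg7 were the 2 genes of the list for which every probe set, used or not, had a negative difference. Both genotype means over all probe sets lay under the olfactory receptor 95th percentile.

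Klrc1, which encodes the inhibitory NKG2A chain and is named here for that role, read 7.71, 7.37 and 6.79 on the wild-type arrays and 6.62, 8.32 and 7.14 on the Dnmt3a+/- arrays. These ranges overlapped widely, with a difference of 0.07 (SE 0.42; limma, adjusted p = 0.954). Without Dnmt3a+/- replicate 2, its highest array, the difference was -0.41.

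Ncr1, which encodes the activating receptor NKp46 of NK cells, differed in the opposite direction. Its log2 values were 6.41, 6.20 and 6.47 on the wild-type arrays and 6.88, 7.10 and 6.44 on the Dnmt3a+/- arrays. Replicates 1 and 2 of Dnmt3a+/- were above all wild-type arrays, and replicate 3 lay among them. The difference was 0.45 (SE 0.18, 95% confidence interval 0.03 to 0.86), from 6.36 ± 0.14 to 6.81 ± 0.34 (SD, n = 3). The exact permutation test gave p = 0.2, and the gene did not pass over all genes (limma, adjusted p = 0.631). It rested on 2 probe sets, at 0.67 and 0.22, and of the 6 below the filter 3 had a negative difference. Over all 8 probe sets the difference was 0.15 (SE 0.16). Without Dnmt3a+/- replicate 2 it was 0.30, and without Dnmt3a+/- replicate 3 it was 0.63. The unadjusted p of Ncr1 in limma was 0.0377, and it was above 0.05 with no filter (0.376) and with any 1 array other than Dnmt3a+/- replicate 3 left out. Cd247 and Fcer1g, whose proteins carry the signal of this receptor and which are named for that role, differed by -0.13 (SE 0.15) and -0.08 (SE 0.16). Without Dnmt3a+/- replicate 2 these were -0.02 and -0.18.

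Klrb1c, an NK receptor of the lectin-like family, varied more between replicates than between genotypes. It read 6.41, 6.88 and 7.32 on the wild-type arrays and 6.88, 6.30 and 6.47 on the Dnmt3a+/- arrays, so that the ranges overlapped. The difference was -0.32 (SE 0.24; limma, adjusted p = 0.687). All 3 used probe sets were lower, with differences of -0.43, -0.34 and -0.20. The difference was -0.55 without wild-type replicate 1, -0.10 without wild-type replicate 3 and -0.20 without Dnmt3a+/- replicate 2. A further probe set is annotated to Klrb1c and Klrb1b together and was not used, and receptors of this family resemble each other in sequence, so signal shared between relatives cannot be separated.

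**Figure D2:**
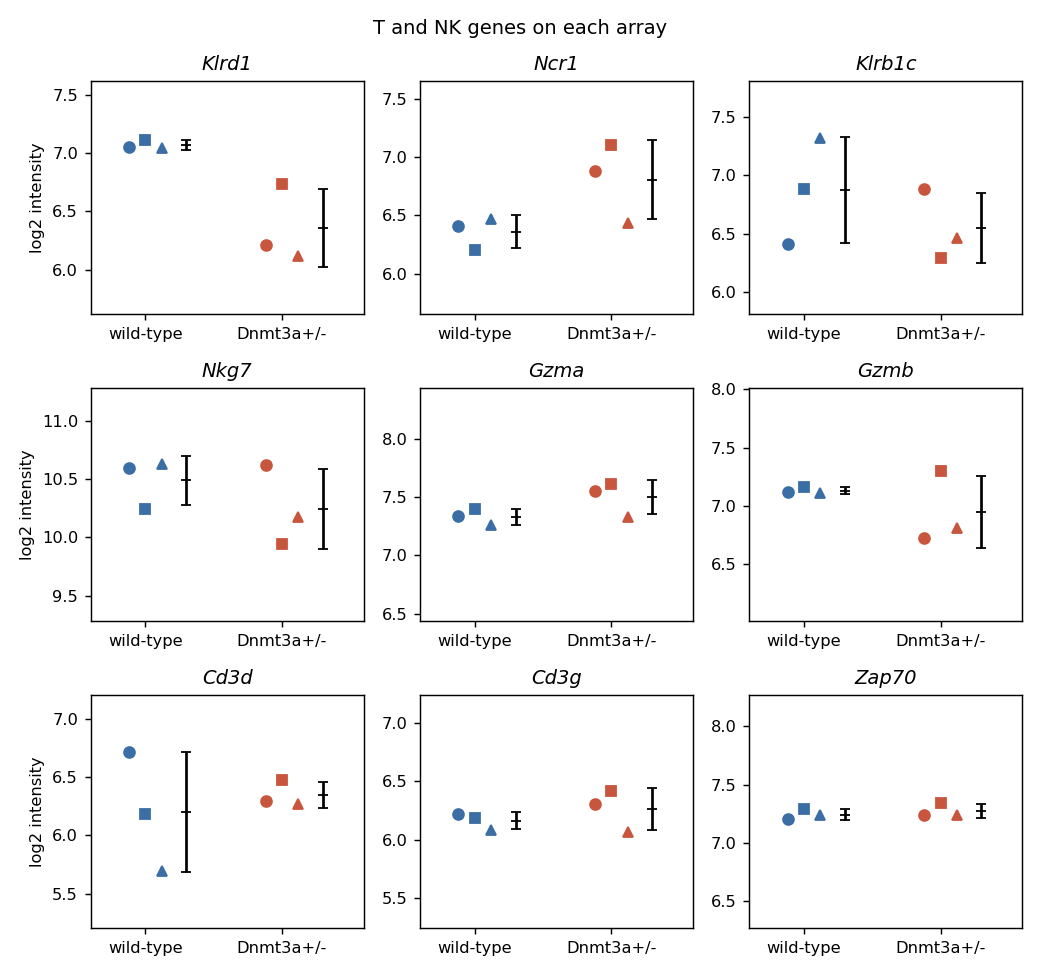
Each panel gives the log2 intensity of 1 gene on each array (circle, square and triangle for replicates 1, 2 and 3), with the mean and SD of each genotype (n = 3) as a dash with bars. All panels span 2 log2 units. Klrd1 is the 1 panel without overlap, at 7.04 to 7.12 in wild-type against 6.12 to 6.74 in Dnmt3a+/-.

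Nkg7 was the granule gene with every probe set above the filter. It read 10.59, 10.24 and 10.62 on the wild-type arrays and 10.62, 9.94 and 10.18 on the Dnmt3a+/- arrays. Dnmt3a+/- replicate 1 lay at the level of the highest wild-type arrays, while the other Dnmt3a+/- arrays read below all wild-type arrays. The difference was -0.24 (SE 0.19, 95% confidence interval -0.69 to 0.20; limma, adjusted p = 0.697). All 8 probe sets had a negative difference, from -0.52 to -0.08, and none was free of overlap. These probe sets read the same 6 RNA samples and so are not independent of each other. The difference was -0.09 without Dnmt3a+/- replicate 2 and -0.43 without Dnmt3a+/- replicate 1.

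The granzymes lay in opposite directions. Gzma, the tryptase-like granzyme, read 7.34, 7.40 and 7.26 on the wild-type arrays and 7.55, 7.61 and 7.33 on the Dnmt3a+/- arrays. Dnmt3a+/- replicate 3 lay inside the wild-type range, and the difference was 0.17 (SE 0.12; limma, adjusted p = 0.682), or 0.11 without Dnmt3a+/- replicate 2. Its brightest probe set differed by 0.40 and another by 0.39, both without overlap, while the other used ones differed by 0.05 and -0.17. Over all 9 probe sets the value was 5.29 ± 0.05 against 5.62 ± 0.07 in Dnmt3a+/- cells (SD, n = 3). That gave a difference of 0.33 (SE 0.11) without overlap, which did not pass (limma, adjusted p = 0.668).

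Gzmb, the granzyme that cleaves after aspartate and starts apoptosis, read 7.12, 7.16 and 7.11 on the wild-type arrays and 6.72, 7.30 and 6.81 on the Dnmt3a+/- arrays. The wild-type arrays lay within a narrow range and the Dnmt3a+/- arrays on both sides of it. The difference was -0.18 (SE 0.16; limma, adjusted p = 0.716), and -0.36 without Dnmt3a+/- replicate 2. Its 2 used probe sets disagreed, at -0.39 and 0.03. Granzymes are close relatives, so signal from one on the probe sets of another cannot be separated. Prf1, which encodes the pore-forming perforin and is named for its role, differed by 0.31 (SE 0.14; limma, adjusted p = 0.631). Prf1 was 0.04 with the filter at the 75th percentile and 0.46 with the median of probe sets.

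The T cell receptor genes of the list showed small differences. Cd3d read 6.72, 6.18 and 5.69 on the wild-type arrays, a spread of about 1 log2 unit, and 6.29, 6.47 and 6.27 in Dnmt3a+/- cells, all within the wild-type range. The difference was 0.15 (SE 0.24; limma, adjusted p = 0.833), with 0.41 without wild-type replicate 1, -0.10 without wild-type replicate 3 and 0.08 without Dnmt3a+/- replicate 2. Cd3g read 6.22, 6.19 and 6.09 against 6.31, 6.42 and 6.07, with a difference of 0.10 (SE 0.13; limma, adjusted p = 0.785), or 0.02 without Dnmt3a+/- replicate 2. Both genes lie next to each other in the genome, and both had probe sets on either side of 0.

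Zap70, the kinase that binds phosphorylated CD3 chains, was the steadiest gene of the list. It read 7.20, 7.29 and 7.24 on the wild-type arrays and 7.24, 7.34 and 7.24 on the Dnmt3a+/- arrays. The groups overlapped almost fully, with a difference of 0.03 (SE 0.10, 95% confidence interval -0.21 to 0.27; limma, adjusted p = 0.927), or -0.0054 without Dnmt3a+/- replicate 2. Its pooled SD within genotypes was 0.05, where the median over all genes was 0.17 and over the 9 genes 0.24. Of its 9 used probe sets, 5 differed by more and 4 by less than 0, from -0.20 to 0.24.

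**Figure D3:**
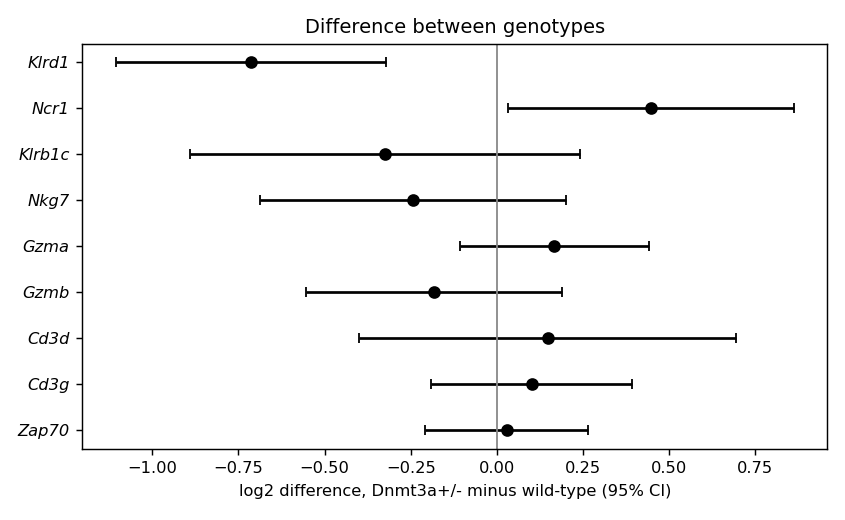
Points give the log2 difference of each gene, Dnmt3a+/- minus wild-type, from limma on 3 against 3 arrays, and bars its 95% confidence interval before any adjustment for the number of genes. The intervals of Klrd1 (-1.10 to -0.32) and Ncr1 (0.03 to 0.86) exclude 0 and lie on opposite sides of it, and those of the other 7 genes include 0.

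Over the 36 used probe sets, 22 were lower and 14 higher in Dnmt3a+/- cells. The genotypes did not overlap in 6 of them (16.7%), against 12.4% of all 628415 probe sets above the filter. An unadjusted p under 0.05 was found for 2 of them, both of Klrd1 (5.56%), against 6.21% of all (limma). After adjustment 0 of the 36 passed and 0% of all probe sets did. The filter took the mean of all 6 arrays, so a probe set near the cut could pass through its brighter genotype alone. A Cd3g probe set without overlap spanned 5.72 to 5.895 across wild-type arrays, against 6.11 to 6.22 for Dnmt3a+/-. The Gzmb probe set at -0.39 spanned 6.04 to 6.16, against 5.48 to 6.13 for Dnmt3a+/-. What this did to the counts was not tested.

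**Figure D4:**
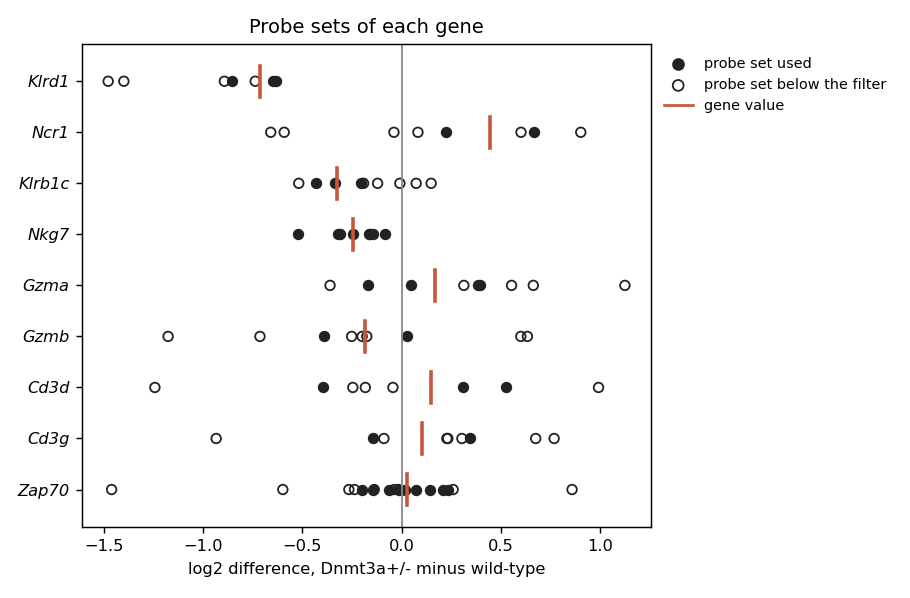
Each circle is the log2 difference of 1 probe set, filled where it passed the level filter (36) and open where it did not (49), and the red line is the gene value from the filled ones. The 7 probe sets of Klrd1 and the 8 of Nkg7 all lie left of 0, while those of the other genes lie on both sides.

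The other genes of the T and NK programmes were read from 6 lists, grouped by role. These lists too were chosen with earlier results of these data known, so their counts are description and no test. Of 101 listed genes 94 were measured, 45 higher and 49 lower in Dnmt3a+/- cells, with a median of -0.02. None passed after adjustment (limma, smallest adjusted p = 0.631). An unadjusted p under 0.05 was found for 18 of them, 4 higher and 14 lower (19.1%, against 7.49% of all genes), and 19 did not overlap (20.2%, against 15.8%). Some lists of other cell types held a like share with such a p. It was 23.1% for B lineage, 21.4% for monocyte, 18.2% for mast cell and 15.4% for neutrophil markers. For megakaryocyte, erythroid, dendritic and KLS markers it was 12.5%, 11.1%, 9.09% and 0%. The count of 18 was 8 without wild-type replicate 2 and 12 without wild-type replicate 1, where 4.61% and 7.06% of all genes had such a p. It was 11 without either wild-type replicate 3 or Dnmt3a+/- replicate 2, where 4.93% and 5.41% of all genes did.

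Signalling genes of the T cell receptor made up the list with the most negative median, -0.26, against -0.02 over all genes. Of 15 measured members 10 were lower, where 54.3% of all genes were lower. Of these, 5 had an unadjusted p under 0.05, against 7.49% of all genes in either direction, and the same 5 did not overlap, against 9.05% of all genes in that direction. A further member, the adaptor Sh2d2a, named after its value was seen, did not overlap in the higher direction, at 0.20 (SE 0.11). The 3 with the smallest p were Fyn, a kinase related to Lck, at -0.49 (SE 0.14), the exchange factor Vav1 at -0.43 (SE 0.15) and Syk, the relative of Zap70 found outside T cells, at -0.36 (SE 0.14). The other 2, named after their values were seen, were Prkcq at -0.26 (SE 0.10) and Ptprc, the pan-leukocyte phosphatase CD45, at -0.27 (SE 0.11). Fyn read 8.06, 7.96 and 7.86 on the wild-type arrays and 7.59, 7.20 and 7.61 on the Dnmt3a+/- arrays, with every Dnmt3a+/- array below every wild-type array. None passed over all genes (limma, adjusted p = 0.631 for each of the 5). Many of these genes also work in progenitors and other blood cells, and 10 of the 15 lay above the olfactory receptor 95th percentile. Syk was -0.23 without Dnmt3a+/- replicate 2. The list's median ran from -0.26 to -0.18 with any 1 array left out, and was -0.18 with the median of probe sets and -0.12 with array weights. The 5 genes with an unadjusted p under 0.05 became 1 without wild-type replicate 2, 2 without wild-type replicate 3 or Dnmt3a+/- replicate 2, and 3 without wild-type replicate 1. In the same order, 4.61%, 4.93%, 5.41% and 7.06% of all genes had such a p.

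Receptor lists showed no common direction. Of 14 genes of the T cell receptor complex and T cell surface, 7 were higher and 7 lower, with a median of -0.01. Cd3e, the CD3 epsilon chain, read 7.51, 7.32 and 7.40 on the wild-type arrays and 7.71, 7.61 and 7.92 on the Dnmt3a+/- arrays, without overlap, for a difference of 0.33 (SE 0.12). Cd3e was 0.21 with no filter and 0.18 with the filter at the 75th percentile, where its unadjusted p was no longer under 0.05. The coreceptor Cd8a differed by 0.20 (SE 0.13) and Thy1 by -0.29 (SE 0.24), and without Dnmt3a+/- replicate 2 they differed by 0.12 and -0.08. Of 20 measured NK receptors and adaptors 12 were higher and 8 lower, with a median of 0.05. Klri1 differed by -0.64 (SE 0.18) and Klrb1a by 0.49 (SE 0.14), each on 1 probe set. With no filter on level these were -0.25 and 0.32, and neither kept an unadjusted p under 0.05. Cd244a, an NK receptor of the SLAM family that progenitors also carry, differed by -0.65 (SE 0.22) on 16 probe sets. It read 8.10, 8.24 and 8.02 on the wild-type arrays and 7.63, 6.94 and 7.83 on the Dnmt3a+/- arrays, with replicate 2 the lowest, and without that array the difference was -0.39.

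Effector and regulatory lists also held both directions. Of 19 granule and cytokine genes 10 were higher and 9 lower (median 0.03). Serpinb9, an inhibitor of granzyme B, differed by -0.73 (SE 0.28), the chemokine Ccl5 by -0.68 (SE 0.26) and Gzmd by 0.34 (SE 0.14). Without Dnmt3a+/- replicate 2 these were -0.46, -0.43 and 0.20, and none of the 3 kept an unadjusted p under 0.05. Serpinb9 was -0.29 with array weights, and Gzmd was 0.16 with no filter. Of 13 transcription factors 6 were higher and 7 lower (median -0.06). Tox, a regulator of T cell and NK cell development, read 7.74, 7.87 and 8.06 on the wild-type arrays and 7.22, 7.25 and 7.61 on the Dnmt3a+/- arrays, without overlap, at -0.53 (SE 0.15). That was -0.35 with no filter and -0.34 with the median of probe sets. Runx3 differed by -0.23 (SE 0.15) and Lef1 by 0.17 (SE 0.11), with Lef1 at 0.10 without Dnmt3a+/- replicate 2. Of 13 cytokine and homing receptors 5 were higher and 8 lower (median -0.06). The interleukin-18 receptor chains Il18rap and Il18r1 differed by -0.52 (SE 0.15) and -0.50 (SE 0.20), and the interleukin-12 receptor chain Il12rb2 by -0.37 (SE 0.11), all without overlap. Il18r1 was -0.27 without wild-type replicate 1 and -0.30 with the filter at the 75th percentile, and its unadjusted p was then above 0.05. None of the genes in these lists passed over all genes (limma, adjusted p of 0.631 or above).

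**Figure D5:**
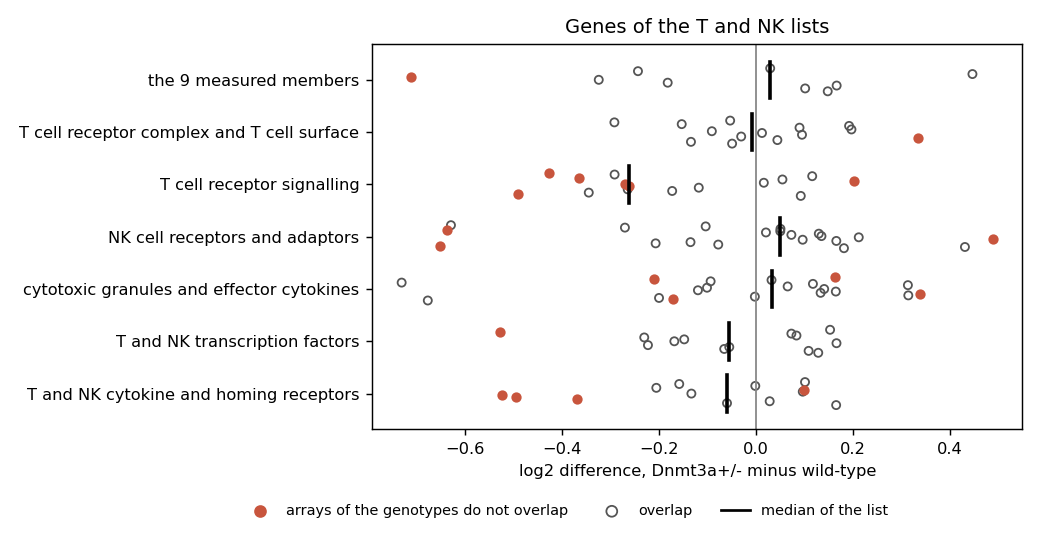
Each circle is the log2 difference of 1 gene, Dnmt3a+/- minus wild-type, in the 9 measured members and the 6 other T and NK lists, and black lines are list medians. Red circles mark genes whose arrays do not overlap between genotypes. The T cell receptor signalling list has its median at -0.26, and the other medians lie between -0.06 and 0.05.

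Markers of other cell types were set beside these values, and their part in the results was not tested. The summed intensity of the 9 T and NK genes ranged from 2158 to 2520 on wild-type and from 1969 to 2481 on Dnmt3a+/- arrays. Neutrophil markers (13 of 15 measured) were higher in 11 and lower in 2, with a median of 0.26. Their sums were 12985 to 19076 and 16239 to 23511, and Retnlg (0.98) and Mmp8 (0.64) led. Set against the wild-type mean, the list's median was 0.17, -0.39 and 0.20 on wild-type replicates 1, 2 and 3. On the Dnmt3a+/- arrays it was 0.70, 0.25 and 0.09, so the genotypes overlapped, with wild-type replicate 2 the lowest. For monocyte and macrophage markers (14 of 14) the median was 0.17, with Csf1r at -0.73 and Adgre1 at 0.42, and sums of 2239 to 2553 and 2320 to 2578. Adgre1 was 0.07 with no filter and 0.06 with the median of probe sets, where Csf1r was -0.86 and -0.80. B lineage markers (13 of 14) had a median of 0.01, with Cd72 at -0.77 and Cd22 at 0.51, and sums of 1851 to 2150 and 1893 to 2200. With the filter at the 75th percentile Cd22 was 0.02 and Cd72 stayed at -0.77. Mast cell and basophil markers (11 of 11), which include Gzmb, had a median of 0.04, with Il4 at 0.62 and Mcpt8 at 0.45, and sums of 1425 to 1588 and 1455 to 1655. Erythroid markers (9 of 11) had a median of -0.05, with Car1 at -0.78 and Ermap at -0.31, and sums of 2098 to 3532 and 2156 to 2391. Megakaryocyte markers (8 of 8) had a median of 0.02, with Gp1bb at 0.33 and Gp6 at 0.26, and sums of 1144 to 1384 and 1066 to 1450. Dendritic cell markers (11 of 11) had a median of -0.04, with Irf8 at -0.47 and Flt3 at -0.32, and sums of 3728 to 3924 and 3241 to 3574. The KLS gate and progenitor list (12 of 13) had a median of -0.06, with Flt3 and Cd34 (-0.23) leading, and its sums of 8461 to 8989 and 7722 to 8096 did not overlap. The dendritic list, which shares Flt3 with the KLS list, also had lower sums without overlap. Sums were lower without overlap too for T cell receptor signalling, T and NK transcription factors, and T and NK cytokine and homing receptors. A sum of intensities mostly follows its brightest genes, and no share over other gene sets was computed. Kit differed by -0.11 (SE 0.10) and Ly6a by -0.02 (SE 0.13). An array gives no value of 0, so no marker was at 0, and no gene of these lists passed over all genes (limma, smallest adjusted p = 0.631).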

How the data were processed

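Total RNA of 6 samples, 20 ng each, was amplified as whole-transcript cDNA, labelled with biotin and read in 1 colour. The authors deposited normalized intensity values per probe set, made with RMA in Partek per the submitters' processing notes, whose settings the sources used here do not give. The values ran from 1.84 to 22239 with array medians of 59.8 to 61.6, so they were linear and log2 was taken with no pseudocount. Of 1256831 probe sets, 318760 had 1 gene symbol, brought up to date through RefSeq (GRCm38.p6). A gene's value was the mean of its probe sets above log2 5.89, the median of the probe-set means, which gave 20059 genes. RMA removes shifts common to a whole array, and the number of arrays limits the precision. The test between genotypes was limma 3.58.1 (R 4.3.3) with empirical Bayes moderation, no covariate and Benjamini-Hochberg adjustment over all genes, after a test on simulated data, and single genes also with an exact permutation test. The genes named in the text were the 10 listed ones, the 3 with the smallest p in each other T or NK list, the 2 with the smallest p in each list of another cell type, and Kit, Ly6a and Dnmt3a, with exceptions marked where they are named. The members and lists were chosen with earlier results of these data known.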

Additional observations from a re-analysis of the deposited data

How the results depend on the processing

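Under all alternatives run, no gene of the list passed the adjusted threshold (0 of 9, limma), and Klrd1, Ncr1, Klrb1c, Nkg7, Gzma and Cd3g kept their direction. With the filter at the 75th percentile, 5 of the 9 genes could be measured and Klrd1 and Ncr1 could not. The count of 2 genes with an unadjusted p under 0.05 was 1 at the 75th percentile, 1 with the replicate block, and 1 to 2 with any 1 array left out, and 3 with array weights. The share of all genes with such a p was 7.34%, 6.35%, 4.61% to 9.61% and 12.9% in these settings. The replicate block left 3 of the 5 signalling genes. Klrd1 was among the genes of the 9 with such a p wherever it was measured. Ncr1 was replaced by Gzma with no filter, Klrb1c without wild-type replicate 1, Nkg7 without Dnmt3a+/- replicate 1 and Gzmb without Dnmt3a+/- replicate 2. The count of 1 without overlap was 3 without the filter and 2 to 4 with any 1 array left out, where fewer arrays overlap less often. Of all genes, 15.2% did not overlap without the filter and 22.5% to 31.8% with any 1 array left out. The median of the list was -0.0762 without the filter and ran from -0.100 to 0.0540 with any 1 array left out. The 18 other T and NK genes with an unadjusted p under 0.05 became 8 to 16 with any 1 array left out, against 4.61% to 9.61% of all genes. Directions turned without the filter for Cd3d (-0.0348), Zap70 (-0.0762) and Lef1 (-0.0082), at the 75th percentile for Gzmb (0.0253) and Gp6 (-0.0714), and with the median of probe sets for Zap70 (-0.0336), Runx3 (0.108), Fcer1g (0.115) and Ly6a (0.0531). Ly6a also turned after cyclic loess (0.0131), a second quantile normalization (0.0038) and array weights (0.0488), the last of which turned Klrc1 (-0.293) and Cd247 (0.0227) too. With any 1 array left out, Cd3d ran from -0.104 to 0.408, Zap70 from -0.0054 to 0.0540, Klrc1 from -0.407 to 0.444, Fcer1g from -0.209 to 0.0248 and Ly6a from -0.104 to 0.0771. The causes of these turns were not tested. Deviations of same-numbered arrays correlated at -0.05, -0.09 and 0.11 across genes. The highest value with a differently numbered array was 0.17, 0.17 and 0.08 in turn. Such correlations cannot show whether samples were handled in pairs. The mean over all probe sets was near that of unexpressed genes for 8 of the 9 genes.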
